A study of Mus musculus with 13 samples.

Results

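The ubiquitin ligases of muscle atrophy and the transcription factors that drive them were examined in C2C12 myotubes, the multinucleated cells formed when the mouse C2C12 myoblast line fuses. The 10 genes were chosen by name, as the ligases *Fbxo32*, *Fbxo30*, *Fbxo40*, *Trim63*, *Cblb*, *Traf6* and *Nedd4* and the transcription factors *Foxo1*, *Foxo3* and *Klf15*. All 10 were found by Ensembl identifier among the 16382 genes of the deposited tables, and all 10 passed the filter on low counts that left 13142 genes for testing. Wild-type myotubes of this 1 cell line in low-serum differentiation medium received either 10 μM palmitoylethanolamide (PEA), a fatty acid amide, or its vehicle DMSO (CON) on day 8 of differentiation, and polyadenylated RNA was sequenced after 24 h. There were 6 libraries per treatment. The experiment was run 3 times with a pair of wells per treatment each time. Because the pairs cannot be matched to libraries from the labels, the p-values below measure the spread between libraries, part of which may be technical. The tests, SDs and intervals take the 6 libraries of a treatment as independent. Where wells of a pair are alike, p-values are too small and intervals too narrow. PEA replicate 2 was sequenced in 2 runs that share 1 set of values and was counted as 1 library.

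Ubiquitin ligases (E3) choose the proteins that are tagged with ubiquitin, most of them for breakdown by the proteasome, and receive the ubiquitin from a conjugating enzyme (E2). *Fbxo32* (atrogin-1 or MAFbx) and *Trim63* (MuRF1) are muscle-enriched ligases whose mRNAs rise in fasting, denervation and glucocorticoid excess, and both are widely used as readouts of atrophy. FoxO factors activate both genes when insulin and Akt signalling falls, because Akt otherwise keeps them phosphorylated and outside the nucleus. Glucocorticoids act on the same genes through their receptor and through Klf15, a transcription factor that the receptor induces.

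The *Trim63* promoter is a known meeting point of these inputs, and it is shown beside that of *Fbxo32* so that the sites can be read. Each window runs from 250 bases before to 50 bases after the annotated transcript start, 5′ to 3′ on the strand of the gene, in the GRCm39 build. Capitals mark matches to a FoxO motif (GTAAACA, on either strand) or to the half-site of the glucocorticoid receptor element (TGTTCT, on either strand). The half-site was chosen after the *Trim63* sequence had been seen.
Trim63, chr4:134042143-134042442, plus strand: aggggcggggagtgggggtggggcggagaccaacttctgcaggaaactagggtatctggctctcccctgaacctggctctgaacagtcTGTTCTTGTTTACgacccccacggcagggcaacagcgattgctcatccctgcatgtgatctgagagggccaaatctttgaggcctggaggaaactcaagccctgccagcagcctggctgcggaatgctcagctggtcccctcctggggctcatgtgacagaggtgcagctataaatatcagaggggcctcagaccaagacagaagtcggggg
Fbxo32, chr15:58078692-58078991, minus strand: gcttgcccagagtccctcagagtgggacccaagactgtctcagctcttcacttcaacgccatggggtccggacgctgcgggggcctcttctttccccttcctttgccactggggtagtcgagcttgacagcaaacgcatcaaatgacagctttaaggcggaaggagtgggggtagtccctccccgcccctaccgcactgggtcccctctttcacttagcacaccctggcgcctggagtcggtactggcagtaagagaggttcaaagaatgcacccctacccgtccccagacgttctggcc
In *Trim63* the half-site began at position -162 and the FoxO motif, in reverse orientation, at -156, with no base between them. None of the other 9 genes had either motif in its window. Only these exact letters were searched, so sites with other letters or outside the window would be missed. Of 21770 promoters of protein-coding genes, 685 (3.15%) held the FoxO motif, 3695 (17.0%) held the half-site, and 138 (0.634%) held both. The side-by-side arrangement was read from *Trim63* itself, so its frequency was not used. The half-site was also chosen from *Trim63*, so the shares that include it do not measure how unusual this promoter is. These are letter matches and not measured binding.

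With 24 h of PEA, none of the 10 genes changed at an adjusted p-value of 0.05 (edgeR quasi-likelihood test, Benjamini-Hochberg adjustment over all genes tested). Over all 13142 genes tested, 1452 (11.0%) passed that threshold. DESeq2 and limma-voom also called 0 of the 10, where they called 14.5% and 12.4% of all genes. At an unadjusted p below 0.05 there was 1 of 10, *Foxo1*, against 27.4% of all genes. The normalized counts of CON and PEA libraries overlapped for all 10 genes, while 4.34% of all genes showed no overlap. By point estimate 7 genes were higher and 3 lower in PEA. The median absolute log2 fold change was 0.08 for the 10 genes and 0.11 for all genes tested. For 8 of the 10 the 95% confidence interval lay within 0.5 of 0 on the log2 scale, and the exceptions were *Fbxo40* and *Klf15*.

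**Figure D1:**
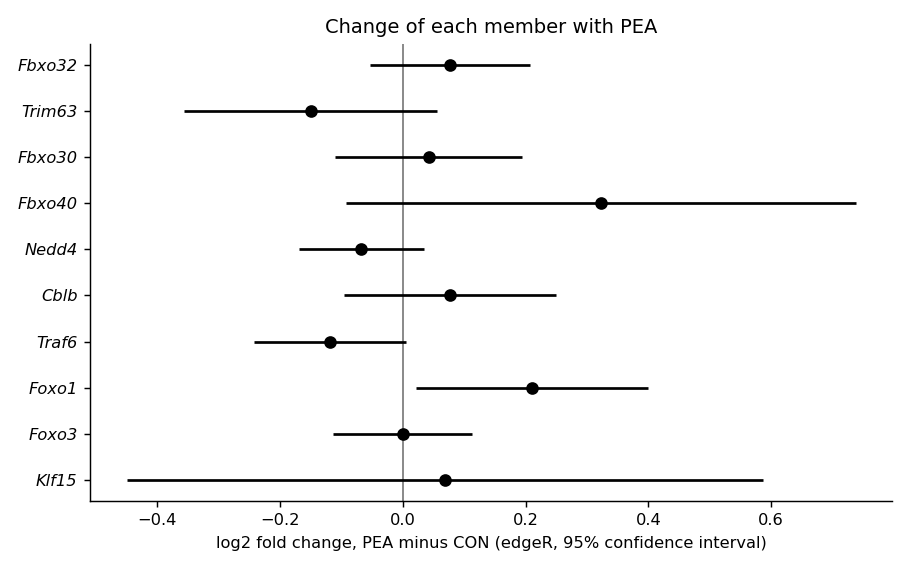
Log2 fold change of each of the 10 genes, PEA minus CON, on the horizontal axis, as the edgeR estimate (point) with its 95% confidence interval (line). The interval of *Foxo1* runs from 0.02 to 0.40, the other 9 intervals include 0, and the widest belong to *Fbxo40* and *Klf15*.

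Libraries held 12354845 to 50397444 estimated counts, with CON replicate 1 the deepest, and the values below are the deposited normalized counts, which correct for depth. Myotube identity was clear from 17 tested markers such as *Acta1* (56797 ± 7515 normalized counts in CON, SD, n = 6), of which 4 were lower in PEA (*Myh8*, *Tnnt3*, *Mb* and *Pygm*) and 13 were not called. The *Myh8* call was lost without any of CON replicates 1, 5 and 6 and PEA replicates 1, 2, 4, 5 and 6, and the *Tnnt3* and *Pygm* calls without PEA replicate 6, with adjusted p up to 0.108. *Myh8* was also not called by DESeq2, by limma on the deposited normalized counts with either pseudocount (1 or 10), or by limma on log2 CPM. The summed myotube markers spanned 79291 to 126561 normalized counts in CON and 82043 to 98528 in PEA. All 12 cycling-cell markers rose, and their sum was 3452 to 8967 in CON and 9114 to 10973 in PEA, without overlap. The *Ccnb1* call was lost without CON replicate 6 or PEA replicates 2 or 6 (adjusted p up to 0.056) and the *Cenpf* call without CON replicate 6 or PEA replicates 5 or 6 (adjusted p up to 0.061). Of 10 myoblast and progenitor markers tested, *Cd34* rose and *Cdh15* and *Hes1* fell, the *Cdh15* call being lost without any of 9 libraries (all but CON replicate 3 and PEA replicates 1 and 3; adjusted p up to 0.097). Of 6 fibroblast markers *Dcn* was higher, a call lost without any of 9 libraries (all but CON replicates 2 and 3 and PEA replicate 1; adjusted p up to 0.097) and in DESeq2 (adjusted p = 0.051). Of 2 adipocyte markers *Cebpa* rose while *Fabp4* lay at 27.4 ± 11.4 in CON. Neither of the 2 macrophage markers tested was called, the 5 measured ones summing to at most 155, and the 4 endothelial markers summed to at most 28.5 normalized counts. In such a bulk culture, fewer cells of a type and less RNA per cell cannot be told apart. The part of these marker shifts in the results below was not tested.

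Among the F-box proteins, which bring substrates to SCF ligase complexes, *Fbxo32* (ENSMUSG00000022358, chr15:58039275-58078741, minus strand) marks MyoD and the translation factor eIF3f for breakdown. Its normalized count ran from 1253 to 1360 in CON, with a median of 1311, and from 1220 to 1589 in PEA, with a median of 1369. PEA replicates 2, 4 and 5 lay above every CON library and PEA replicates 1 and 3 below every one, so that the PEA values reached past the CON range on both sides. The coefficient of variation was 3.43% in CON and 10.5% in PEA. The estimated log2 fold change was 0.08 ± 0.06 (SE, adjusted p = 0.457 by edgeR), and the upper end of its 95% interval (-0.05 to 0.21) was a 1.16-fold increase. The exact two-sided permutation test on log2 normalized counts gave p = 0.310.

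*Fbxo30* (MUSA1, ENSMUSG00000047648, chr10:11156770-11173806, plus strand) is the F-box ligase that BMP and SMAD signalling holds down. It ran from 645 to 855 in CON (median 823) and from 748 to 918 in PEA (median 792). Only PEA replicate 6 exceeded every CON library, and CON replicate 2 was the lowest of all. PEA differed from CON by 0.04 ± 0.07 on the log2 scale (SE, edgeR adjusted p = 0.752; exact permutation p = 0.608).

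*Fbxo40* (ENSMUSG00000047746, chr16:36783822-36810902, minus strand) targets the insulin receptor substrate IRS1 in muscle and, like *Fbxo30*, encodes a TRAF-type zinc finger beside the F-box. It varied most between CON libraries of the ligases. CON ran from 171 to 487 normalized counts (median 306), a 2.85-fold range, and PEA from 309 to 459 (median 388), a 1.49-fold range. CON replicates 3, 4 and 6 lay below every PEA library and CON replicate 2 above every one. The coefficient of variation in CON, 38.8%, was exceeded by 1.48% of the 8632 genes tested with a mean of 100 to 2000 normalized counts, whose median was 9.45%. The log2 fold change of 0.32 ± 0.20 (SE) was the largest of the 10 and was not called (edgeR adjusted p = 0.307, exact permutation p = 0.147), with an interval of -0.09 to 0.74. Without CON replicate 2 it was 0.49 with an edgeR adjusted p of 0.062 and an exact permutation p of 0.039, and over the 12 fits that left out a library it ranged from 0.20 to 0.49.

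CON replicates 1, 2 and 5, which were high in *Fbxo40*, also had the highest sums of myotube markers (117886, 126127 and 126561), against 79291 to 95223 in CON replicates 3, 4 and 6. The PEA libraries had sums of 82043 to 98528 together with *Fbxo40* values from 309 to 459, so that across treatments the pair did not keep one ratio. The 3 genes whose log2 CPM was most like that of *Fbxo40* over the 12 libraries were *Ncam1* (Pearson r = 0.965), *Plk2* (0.965) and *Xirp2* (0.958), a search that was added after the values were seen. *Xirp2*, a muscle protein that binds actin, ran from 112 to 532 normalized counts in CON and from 366 to 595 in PEA. None of these 3 genes was called (edgeR adjusted p from 0.095 to 0.222). With the group means removed the correlations were 0.955, 0.966 and 0.960. They describe 12 libraries that differ in depth, for genes picked as the most correlated among all genes tested.

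**Figure D2:**
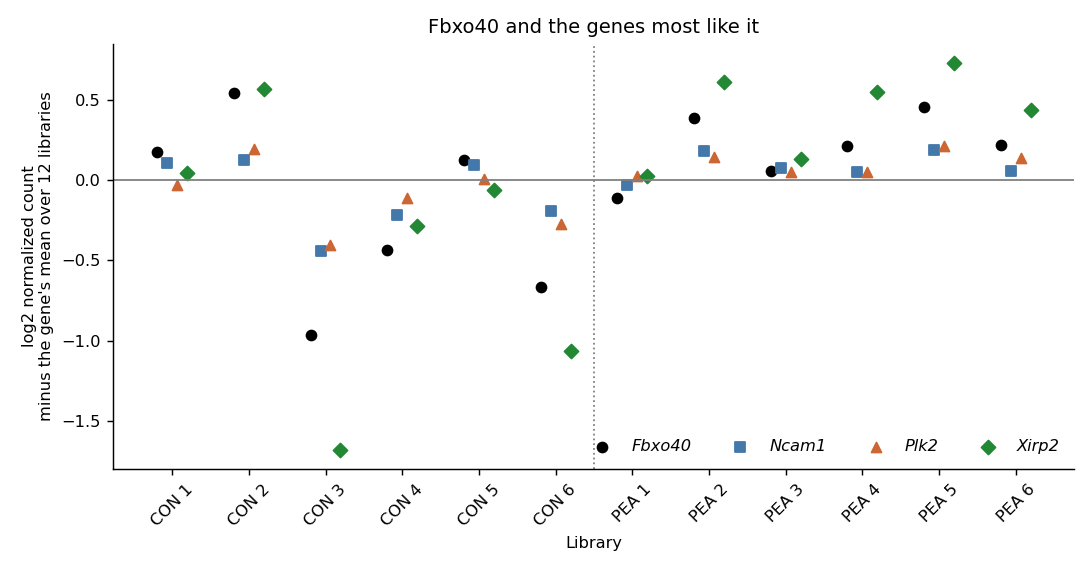
*Fbxo40* and the 3 genes most like it in each of the 12 libraries (horizontal axis), as log2 normalized count minus the mean of the gene over all libraries (vertical axis). CON replicates 3, 4 and 6 lie low in all 4 genes, and CON replicate 2 and PEA replicates 2 and 5 lie high.

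Of the RING ligases, *Trim63* (ENSMUSG00000028834, chr4:134042393-134056948, plus strand) acts on sarcomere proteins, among them myosin heavy chains and troponin I. Its normalized count ran from 477 to 667 in CON (median 533) and from 432 to 581 in PEA (median 494). PEA replicates 1 and 6 were below every CON library and no PEA library was above them all. The log2 fold change was -0.15 ± 0.10 (SE, edgeR adjusted p = 0.346), with an interval of -0.36 to 0.06, and the exact permutation test gave p = 0.223. The 2 atrophy readouts thus had estimates of opposite sign, neither past the threshold. *Trim63* shared its profile over the 12 libraries most closely with *Trdn* (Pearson r = 0.882), which encodes triadin of the calcium release complex, then with *Amotl1* (0.841) and *Mvp* (0.825). The genes most like *Fbxo32* were others, *Zbtb21* (0.897), *Gne* (0.893) and *R3hdm1* (0.874). All of these were picked as the highest correlations among the genes tested, over only 12 libraries. How high such values reach by chance was not tested.

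The relatives of *Trim63* in the MuRF family were not called. Per kilobase of exon in CON, *Trim54* stood at 316 ± 33.0, *Trim63* at 170 ± 24.9 and *Trim55* at 157 ± 38.6 normalized counts (SD, n = 6). *Trim54* (MuRF3) stood at 1798 ± 188 in CON and 1700 ± 119 in PEA (SD, n = 6; edgeR adjusted p = 0.490). *Trim55* (MuRF2) stood at 1628 ± 399 and 1605 ± 121 (adjusted p = 0.948). As with *Fbxo40*, the CON libraries of *Trim55* were more spread, from 991 to 2110.

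*Cblb* (ENSMUSG00000022637, chr16:51851588-52028729, plus strand) encodes a ligase that acts on IRS1 in unloaded muscle and restrains receptor signalling in lymphocytes. It ran from 451 to 624 in CON (median 554) and from 491 to 633 in PEA (median 609), with a log2 fold change of 0.08 ± 0.08 (SE, edgeR adjusted p = 0.587; exact permutation p = 0.400). CON replicate 2 was the lowest library and only PEA replicates 3 and 5 exceeded every CON library. Its relative *Cbl* stood at 443 ± 54.6 in CON and 491 ± 47.8 in PEA (SD, n = 6; adjusted p = 0.320).

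*Traf6* (ENSMUSG00000027164, chr2:101508519-101533545, plus strand) builds lysine-63-linked ubiquitin chains that relay Toll-like and interleukin-1 receptor signals to NF-κB, and it is induced in denervated muscle. It ran from 551 to 647 in CON (median 616) and from 517 to 611 in PEA (median 555). All 6 PEA libraries lay below the CON median, yet only PEA replicates 1 and 4 lay below every CON library. On the log2 scale the difference was -0.12 ± 0.06 (SE), and its interval was -0.24 to 0.01. The exact permutation test gave an unadjusted p of 0.039, the only one of the 10 below 0.05, while the edgeR adjusted p was 0.203. That exact p rose above 0.05 when any of CON replicates 1, 3 and 4 or PEA replicates 1, 2, 4 and 5 was left out. In a fit chosen after seeing the data that removed trends with transcript length and GC content, the log2 fold change was -0.18 and *Traf6* was called (limma adjusted p = 0.047).

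*Nedd4* (ENSMUSG00000032216, chr9:72569596-72657134, plus strand), the HECT ligase that accepts ubiquitin on itself before passing it to membrane and signalling proteins, was by far the most abundant of the 10. It ran from 17246 to 20529 in CON (median 19875) and from 17520 to 19404 in PEA (median 18599). All 6 PEA values lay below the CON median and CON replicate 2 was the lowest of all libraries. The difference was -0.07 ± 0.05 on the log2 scale (SE, edgeR adjusted p = 0.396; exact permutation p = 0.162). Without CON replicate 2 these became an adjusted p of 0.111 and an exact permutation p of 0.0087. Its relative *Nedd4l* stood at 633 ± 29.3 in CON and 616 ± 29.5 in PEA (SD, n = 6; adjusted p = 0.694).

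Of the transcription factors, *Foxo1* (ENSMUSG00000044167, chr3:52175757-52260642, plus strand) had the smallest edgeR p-value of the 10. It ran from 510 to 672 in CON (median 606) and from 549 to 795 in PEA (median 696). PEA replicates 1, 2, 3 and 5 lay above every CON library, and PEA replicate 6 fell among the lowest. The log2 fold change was 0.21 ± 0.09 (SE), with an interval of 0.02 to 0.40, an unadjusted edgeR p of 0.031 and an adjusted p of 0.136. The exact permutation test gave p = 0.074. Without PEA replicate 6 the edgeR adjusted p was 0.055 and the exact permutation p was 0.013. Without PEA replicate 5 the edgeR adjusted p was 0.284.

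*Foxo3* (ENSMUSG00000048756, chr10:42057837-42154007, minus strand) was almost level between treatments. It ran from 1219 to 1508 in CON (median 1450) and from 1324 to 1481 in PEA (median 1404). All PEA libraries lay inside the CON range. The estimate was a log2 fold change of 0.00032 ± 0.054 (SE, edgeR adjusted p = 0.998), with an interval of -0.11 to 0.11 that covers the spread between libraries only. The limma fit with length and GC trends removed gave -0.076. *Foxo4* stood at 818 ± 43.7 in CON and 759 ± 69.1 in PEA, and *Foxo6* at 428 ± 50.3 and 368 ± 86.0 (SD, n = 6; edgeR adjusted p = 0.301 and 0.294).

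*Klf15* (ENSMUSG00000030087, chr6:90438998-90452220, plus strand), which also governs breakdown of branched-chain amino acids, was the scarcest of the 10. It ran from 26.8 to 57.6 normalized counts in CON (median 42.7) and from 28.0 to 62.6 in PEA (median 36.9), on 19 to 70 estimated counts per library. The ranges coincided almost fully, and PEA replicates 4 and 5 were the highest of their group. The log2 fold change of 0.07 ± 0.25 (SE, edgeR adjusted p = 0.889; exact permutation p = 0.848) had the widest interval of the 10, from -0.45 to 0.59, and smaller changes were not detectable. The genes most like it over the 12 libraries were *Nras* (Pearson r = 0.873), *Epdr1* (0.848) and *Hps3* (0.848). These were picked as the highest among all genes tested, for a gene with few counts. How high such values reach by chance was not tested.

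**Figure D3:**
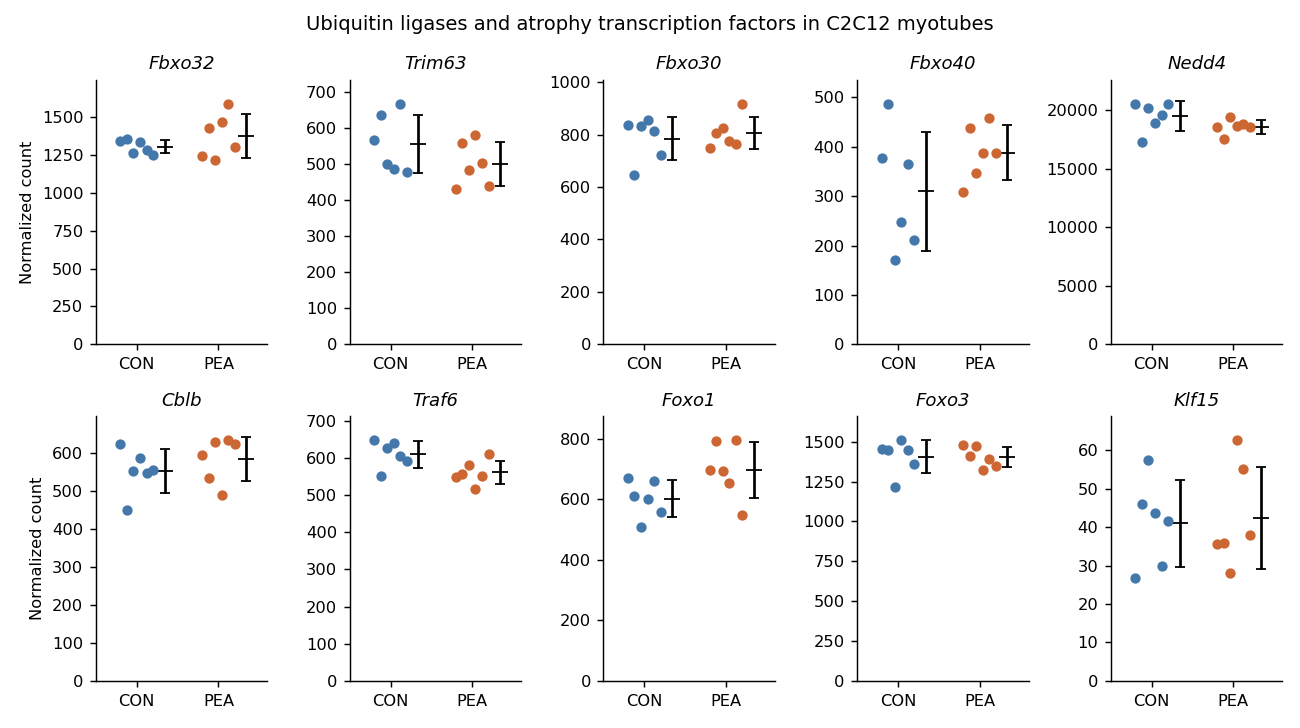
Normalized count of each of the 10 genes (vertical axes, each starting at 0) in the 6 CON and 6 PEA libraries (points), with the group mean and SD beside them. The treatments overlap in every panel, PEA values of *Fbxo32* are more spread than CON values, and CON values of *Fbxo40* are more spread than PEA values.

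Per kilobase of exon, so that levels can be set against each other, *Nedd4* led in CON with 1297 ± 84.3 normalized counts per kilobase (SD, n = 6), 7.63 times the next gene. *Trim63* (170 ± 24.9), *Foxo3* (152 ± 11.2) and *Fbxo32* (143 ± 4.90) followed, with overlapping ranges between neighbours. *Fbxo30* (117 ± 12.3) lay below *Fbxo32* without overlap. *Foxo1* (65.0 ± 6.63), *Traf6* (58.8 ± 3.46), *Fbxo40* (47.9 ± 18.6) and *Cblb* (43.6 ± 4.56) came next, again with neighbours that overlapped, and *Klf15* (5.55 ± 1.53) stood 7.85 times below *Cblb* without overlap. In PEA the order was the same except that *Fbxo40* (60.0 ± 8.59) came before *Traf6* (54.2 ± 3.06), a pair whose ranges overlapped in both treatments. With the length of the longest transcript in place of all exon bases, 7 of the 10 kept their rank in CON. In the annotation 1628 exon bases of *Nedd4* (10.8%) also belong to 2 other genes on its strand, and 190 to 674 exon bases of *Fbxo32*, *Fbxo30*, *Foxo1* and *Foxo3* overlap a gene on the opposite strand. None of these overlapping genes was among the genes analysed here, and without strand in the counting their reads cannot be told apart from those of the named genes.

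**Figure D4:**
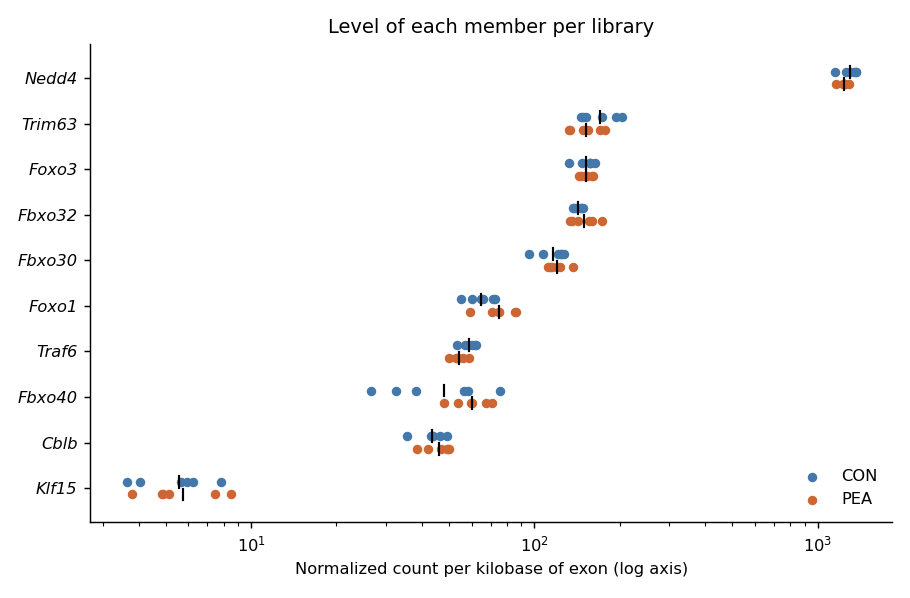
Level of each of the 10 genes as normalized counts per kilobase of exon (horizontal log axis) in the CON and PEA libraries (points), with group means as bars. *Nedd4* stands apart at the top and *Klf15* at the bottom in both treatments.

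The genes around the members were followed in 9 lists of 210 distinct tested genes, of which 9 rose and 17 fell (12.4%, against 11.0% of all genes tested; 6.31% of all genes were higher and 4.74% lower in PEA). The count of 26 was 44 without CON replicate 2, 13 without PEA replicate 5 and 16 without PEA replicate 6. Over all genes the count of 1452 became 2203, 794 and 778 in the same fits. The median log2 fold change over the 210 genes was -0.04, against 0.01 over all genes tested.

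The partners that hand ubiquitin to the ligases lay mostly below 0. Of 23 SCF subunits and E2 enzymes tested, 6 fell, 1 rose and 16 were not called, with a median log2 fold change of -0.14. Point estimates were below 0 for 21 of the 23. *Ube2d1*, an E2 used by many RING ligases, fell from 2116 ± 77.8 to 1831 ± 76.5 normalized counts (SD, n = 6), a log2 fold change of -0.21 ± 0.04 (SE, edgeR adjusted p = 0.0063), and its CON libraries (2036 to 2220) lay above all PEA libraries (1758 to 1968). *Skp1*, the adaptor that links every F-box protein to its cullin, fell by 0.21 on the log2 scale (adjusted p = 0.019), from 5487 ± 353 to 4754 ± 282. *Ube2n* and *Ube2v2*, whose products pair to build lysine-63 chains, changed by -0.20 and -0.33 (adjusted p = 0.018 and 0.020). *Rbx1*, the RING subunit of the complex, and *Nedd8*, the modifier that activates cullins, changed by -0.19 and -0.20 (adjusted p = 0.040 and 0.041). *Ube2o*, a large enzyme with both E2 and E3 activity, rose by 0.19 (adjusted p = 0.032). The number that fell was 2, *Ube2d1* and *Ube2n*, without PEA replicate 5, and 8 without CON replicate 2. The call of *Rbx1* was lost without any of 8 libraries (all but CON replicates 1 and 2 and PEA replicates 1 and 3), that of *Nedd8* without any of 8 (all but CON replicates 2 and 4 and PEA replicates 1 and 3), and that of *Ube2o* without any of CON replicates 3 and 6 and PEA replicates 1, 5 and 6. Genes whose longest transcript is under 3000 bases, as for *Skp1*, *Rbx1* and *Nedd8*, were called lower in 7.96% of cases and longer genes in 3.47%. With trends in length and GC content removed, a limma fit added after the data were seen, 10 of the list fell. In the same limma fit without that step 6 fell. *Nedd8* and *Ube2o* lost their calls when the trends were removed. That step also moved the middle of the whole tested set down, from 0.0071 to -0.037 on the log2 scale. Calls over the whole set rose from 1529 to 1932. Whether the rise from 6 to 10 goes beyond this general shift was not tested.

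Of 26 other ligases of muscle, *Mdm2*, *Smurf2* and *Skp2* rose and *Ube3a* fell, with 22 not called and a median of -0.03. *Mdm2*, the ligase of p53, went from 4462 ± 430 to 5298 ± 332 normalized counts (SD, n = 6; log2 fold change 0.25, edgeR adjusted p = 0.019). *Smurf2*, which acts on SMAD proteins, changed by 0.19 (adjusted p = 0.026). *Skp2*, an F-box protein of the cell cycle that targets p27, changed by 0.31 (adjusted p = 0.047), in libraries where the cycling markers were higher as well. *Ube3a* changed by -0.23 (adjusted p = 0.044). The *Mdm2* call was lost without PEA replicate 5 or 6, that of *Smurf2* without CON replicate 6 or PEA replicates 2, 3 or 5, that of *Skp2* without any of 9 libraries (all but CON replicates 1 and 2 and PEA replicate 4) and that of *Ube3a* without any of 9 (all but CON replicate 2 and PEA replicates 1 and 3), at adjusted p up to 0.106. *Skp2* was also not called by limma-voom, with median-of-ratios size factors, without the filter on low counts, with the replicate number as a block or with length and GC trends removed. *Smurf2* was not called with those trends removed, and *Ube3a* was not without the filter on low counts (adjusted p = 0.051). Of 14 deubiquitinases and ubiquitin genes, *Usp1* rose by 0.25 (adjusted p = 0.0042), with CON at 979 to 1087 and PEA at 1163 to 1329, and *Rps27a*, which encodes ubiquitin fused to a ribosomal protein, fell by 0.30 (adjusted p = 0.021, and 0.056 without PEA replicate 5).

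Of 31 FoxO target genes tested, *Angptl4* and *Pdk4* rose, none fell and 29 were not called, with a median of 0.04. *Angptl4*, an inhibitor of lipoprotein lipase, ran from 1966 to 2555 in CON (median 2182) and from 2910 to 3501 in PEA (median 3254). *Pdk4*, the kinase that shuts pyruvate dehydrogenase, ran from 293 to 386 in CON (median 339) and from 434 to 647 in PEA (median 468). Neither gene overlapped between treatments, and the log2 fold changes were 0.54 ± 0.06 and 0.56 ± 0.10 (SE, edgeR adjusted p = 0.00024 and 0.0034). Both are also PPAR target genes. By p-value *Trp53inp1* and *Eif4ebp1* came next, with log2 fold changes of 0.22 and 0.17, without passing the test (adjusted p = 0.056 and 0.069). Of 29 FoxO relatives and regulators 1 fell, *Ywhae*, a 14-3-3 protein of the kind that holds phosphorylated FoxO in the cytoplasm (17368 ± 983 to 15210 ± 697, log2 fold change -0.19, adjusted p = 0.019), and none rose. The other 14-3-3 genes listed were not called and differed in direction. *Ywhag* was higher (0.12, adjusted p = 0.108; CON 7348 to 8217, PEA 8297 to 9397) and *Ywhah* was level (-0.0031). *Ywhab*, *Ywhaq* and *Ywhaz* had values of -0.13, -0.19 and -0.14 (adjusted p = 0.137, 0.101 and 0.101). *Akt2*, *Sirt2* and *Prkaa2* had values of -0.11, -0.12 and -0.32 and did not pass (adjusted p = 0.080, 0.070 and 0.051).

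Of 21 genes of the glucocorticoid receptor and *Klf15* axis, *Errfi1* and *Mt1* fell and none rose. *Errfi1*, an inhibitor of the EGF receptor, ran from 1975 to 2670 in CON and from 1771 to 1903 in PEA, without overlap (log2 fold change -0.26, edgeR adjusted p = 0.016). *Mt1*, a metallothionein, changed by -0.29 (adjusted p = 0.047, and up to 0.102 when 1 library was left out, being lost without any of 9 libraries, all but CON replicates 1 and 2 and PEA replicate 2). The *Mt1* call was also lost with the replicate number as a block and with length and GC trends removed. *Prodh* and *Rhob* had values of -0.59 and -0.14 and were not called (adjusted p = 0.111 and 0.070). Of 21 genes of the BMP and SMAD input to *Fbxo30*, *Id3*, an inhibitor of basic helix-loop-helix factors, fell by 0.40 (adjusted p = 0.014). *Id2*, *Acvr1* and *Myog*, a myogenic factor that the list also holds, had values of -0.39, -0.17 and -0.19 without passing (adjusted p = 0.073, 0.105 and 0.164).

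Of 27 signalling partners of *Traf6*, *Irak4* and *Ikbkg* rose and *Ube2n*, counted above among the E2 enzymes, fell. *Irak4*, the kinase upstream of Traf6, went from 226 ± 30.9 to 305 ± 41.0 normalized counts (SD, n = 6; log2 fold change 0.44, edgeR adjusted p = 0.017). *Ikbkg*, the NEMO subunit of the IκB kinase, changed by 0.17 (adjusted p = 0.039), a call lost without any of CON replicates 1, 3, 5 and 6 and PEA replicates 2, 5 and 6, with the replicate number as a block, and with length and GC trends removed. *Traf4* had a value of -0.23 (adjusted p = 0.052).

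Among 30 genes that encode named substrates of the ligases, 5 fell, none rose and 25 were not called, with a median of -0.10. Many genes on the list encode proteins of the sarcomere, including the 5 that fell and others that were not called, such as *Myl2* (0.26), *Mybph* (0.0085), *Myh1* (-0.07), *Mylpf* (-0.24) and *Acta1* (-0.23; adjusted p from 0.076 to 0.976). *Actn2*, α-actinin of the Z-disc, ran from 150 to 308 in CON (median 239) and from 90.2 to 127 in PEA (median 102), with a log2 fold change of -1.08 ± 0.17 (SE, edgeR adjusted p = 0.0012). *Tnni2* (fast troponin I) went from 8270 ± 780 to 5945 ± 485 normalized counts (SD, n = 6) and *Myl1* (myosin light chain) from 16002 ± 1771 to 12142 ± 821, at log2 fold changes of -0.47 and -0.40 (adjusted p = 0.00053 and 0.0023). None of these 3 overlapped between treatments. *Tnnt3* and *Tnni1* changed by -0.33 and -0.31 (adjusted p = 0.018 and 0.022), calls lost without PEA replicate 6 for *Tnnt3* and without CON replicate 5 or PEA replicates 5 or 6 for *Tnni1*. These are mRNA levels, and the abundance of the proteins on which *Trim63* acts was not measured. The sum of the myotube markers, of which *Tnnt3* is one, had a median of 92355 in PEA and 106555 in CON. The groups overlapped, since CON replicate 3 lay below every PEA library and CON replicates 4 and 6 inside the PEA range, and the difference was not tested. By gene, 16 of the 17 myotube markers tested had a log2 fold change below 0, with a median of -0.18.

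**Figure D5:**
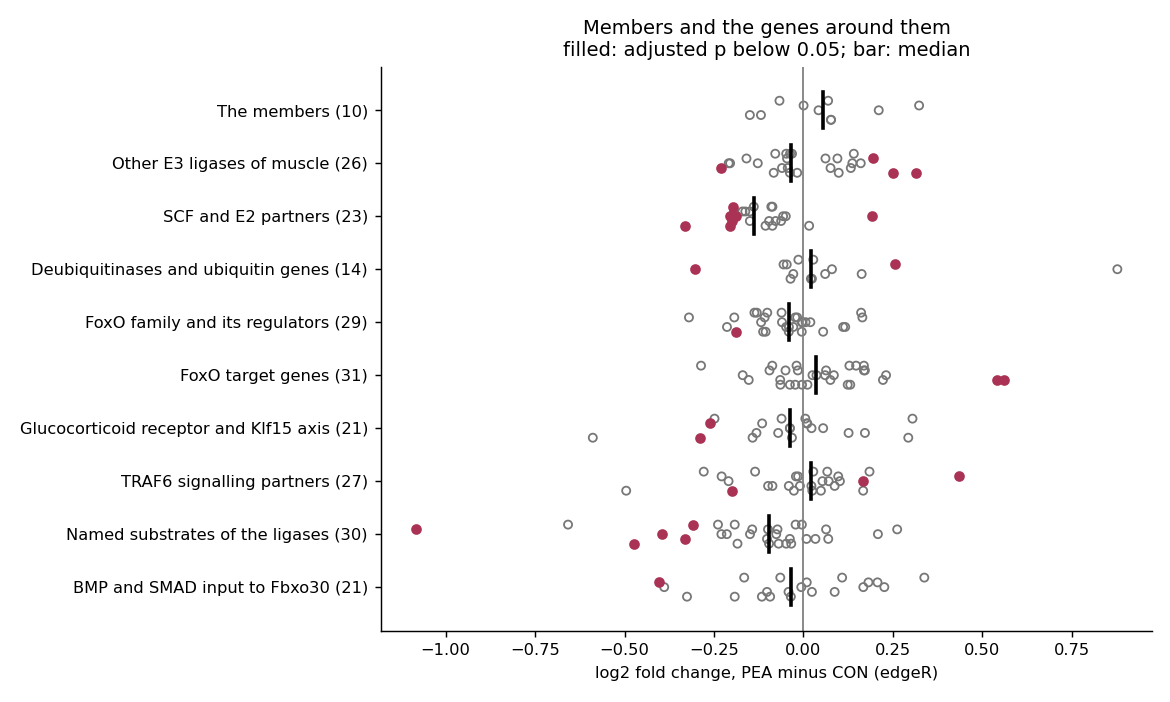
Log2 fold change, PEA minus CON (horizontal axis), of the 10 members and of the tested genes of 9 lists (rows, number tested in parentheses). Filled points passed an adjusted p of 0.05, and bars are medians. No member is filled, the SCF and E2 partners have their median at -0.14, and 5 substrates are filled on the lower side.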

How the data were processed

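Poly(A)-enriched RNA of C2C12 myotubes was sequenced from 6 CON and 6 PEA libraries. The authors trimmed reads, aligned them to mm39 and quantified Ensembl genes in Partek Flow (the submitters' processing notes name STAR 4.4.1d, Partek and DESeq2). The first table deposited by the authors holds an estimated count per gene. The second deposited table is a signal, each count divided by a factor of its library (normalized counts), and within each library this factor was checked to be constant over genes. Whether counting used strand is not given in the sources used here. Symbols and positions came from GENCODE M39 (GRCm39) for 16343 of 16382 genes. A further 2240 protein-coding genes have later identifiers than the last in the tables and were not analysed here.

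Estimated counts (69.7% of those above 0 not whole) were rounded and tested with edgeR 4.0.16 in R 4.3.3 (TMM, default filter, quasi-likelihood test, Benjamini-Hochberg adjustment, threshold 0.05). Single genes were also compared by an exact two-sided permutation test over the 924 label assignments on log2(normalized count + 1), unadjusted, for which the smallest possible p is 0.0022. Library depth was 12354845 to 50397444 estimated counts, and errors cover counting and the spread between libraries only. The edgeR, DESeq2 and limma fits were tested on simulated data. DESeq2 1.42.0 and limma 3.58.1 served as alternatives, with Python 3.11.15 for tables. Other alternatives were size factors, other filters, a limma fit of the deposited normalized counts, replicate number as a block, a threshold of 0.01 and each library left out.

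Levels between genes used normalized counts per kilobase of the union of exons. Promoters were read from the GRCm39 genome at the canonical transcript start. The full palindromic glucocorticoid receptor element of 15 letters was searched first and matched 0 of the 21770 windows.

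Members, lists and alternatives were chosen with earlier results of these data known. Genes named are the 10 members, the 4 of each list with the smallest p-value, relatives of the members, the 2 most abundant of each marker list, and the 3 genes most correlated in log2 CPM with *Fbxo32*, *Trim63* and *Klf15*. *Rbx1*, *Nedd8*, *Ube2o*, *Tnni1*, the relatives of *Ywhae*, the marker genes called and the genes most like *Fbxo40* were named after their values were seen.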

Additional observations from a re-analysis of the deposited data

How the results depend on the processing

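None of the 10 genes was called with DESeq2, limma-voom, size factors, no filter, a filter of 10 counts in every library, the deposited normalized counts in limma, an adjusted p below 0.01, or any library left out. A limma fit of log2 CPM called 0 of the 10 genes, 27 genes of the 9 lists and 6 SCF and E2 partners lower, with a median log2 fold change of the 10 genes of 0.05. The same fit with trends in length and GC content removed called 1 (*Traf6*), 41 and 10, with a median of -0.01. Over all genes the limma fit called 1529 before and 1932 after the trends were removed, with medians of 0.0071 and -0.037. In the fit with trends removed *Smurf2*, *Skp2*, *Mt1*, *Ikbkg*, *Nedd8* and *Ube2o* lost their calls. In place of 26 calls by edgeR the lists held 40 with DESeq2, 7 at an adjusted p below 0.01 (SCF and E2 partners 1 lower), and 13 to 44 with 1 library left out (SCF and E2 partners 2 to 8 lower). Over all genes, the 1452 calls by edgeR became 1915 with DESeq2 and 778 to 2203 with 1 library left out. The number of the 10 genes with an exact permutation p below 0.05 was 0 to 3 with 1 library left out, in place of 1. The number with an unadjusted edgeR p below 0.05 was 0 to 4 with 1 library left out, in place of 1 (*Foxo1*). By unadjusted limma p it was 0 with limma-voom and 2 (*Nedd4* and *Traf6*) with trends removed. The level of *Nedd4* per kilobase was 11.3 times the next gene with the length of the longest transcript, in place of 7.63. The cause of these shifts was not tested.

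Replicate numbers did not pair the libraries, since the deviations of same-numbered CON and PEA libraries correlated by -0.083 to 0.065 and 0 of 6 correlated best with its own number. With the replicate block 0 of the 10 genes was called, 30 genes of the lists in place of 26, and 0 in place of 1 had an exact p below 0.05 by sign changes within numbers. *Skp2*, *Mt1*, *Ikbkg* and *Cdh15* lost their calls under the block (adjusted p = 0.075, 0.050, 0.052 and 0.054).

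Signs turned for some uncalled estimates. The median over all genes also moved, from 0.0051 by edgeR to 0.0015 with DESeq2, -1.3e-05 with size factors and -0.037 with trends removed. *Foxo3* was -0.0049 with DESeq2, -0.0047 with size factors, -0.076 with trends removed, and -0.038 to 0.021 with 1 library left out. *Fbxo30* was -0.0061 with trends removed and -0.0081 to 0.067 with 1 left out, and *Klf15* -0.020 and -0.074 to 0.19. *Trim55* was 0.017 in both limma fits of the normalized counts, 0.023 with limma-voom, 0.019 with log2 CPM in limma, 0.014 with the block and -0.13 to 0.070 with 1 left out. With 1 left out *Itgb1* ranged from -0.026 to 0.00086, *Cd68* from -0.19 to 0.038 (0.00087 with trends removed) and *Hps3* from -0.13 to 0.013. Of 230 values of the 10 genes under all alternatives, 215 kept their direction and their side of the threshold. *Klf15* had 19 to 70 estimated counts per library, and depth and the spread between libraries were not separated.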
